A study of Saccharomyces cerevisiae with 9 samples.

Results

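The transcripts described here are those of the proteasome of budding yeast, Saccharomyces cerevisiae, with the transcription factor gene RPN4. The 33 genes were taken by symbol from the platform annotation, out of 5449 S. cerevisiae genes measured. They comprise 14 genes of the core particle, 10 of the base and 8 of the lid of the regulatory particle, and RPN4. Each had 1 probe set, and all 33 lay above background on all 9 arrays: the lowest value of any of them was 8.31 on the log2 scale, against a background of at most 2.20. The array also carries 1746 probe sets for another yeast, Schizosaccharomyces pombe, and their 95th percentile on each array was taken as background.

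Expression was measured on 9 arrays of 3 groups, with 3 biological replicates each. Cultures in rich YPD broth were exposed for 180 min to bisphenol A (BPA, a monomer of polycarbonate plastic) dissolved in ethanol, at 50 or 300 mg/L, from mid-exponential phase, and control cultures received ethanol alone in equal volume. The ethanol was therefore common to all groups. The sources used here give neither strain nor genotype. Values are log2 expression levels as deposited, so a difference of 1 is 2-fold, and every change is read against the rest of the array. Nothing states how the replicate cultures were started, so the p-values measure the spread between these samples.

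The proteasome degrades proteins tagged with ubiquitin. Its core is a barrel of stacked rings, in which the outer alpha rings form the gate and the inner beta rings carry the protease sites. The regulatory particle consists of a base, with a ring of ATPases that unfold the substrate, and a lid, which removes the ubiquitin chain. In budding yeast most subunit genes are transcriptional targets of Rpn4, a short-lived protein that is itself destroyed by the proteasome, which forms a feedback loop.

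RPN4 (YDL020C) rose at 300 mg/L BPA, whereas 15 of the 32 subunit genes fell and 0 rose. Of all genes, 25.2% were called lower and 27.5% higher. RPN4 stood at 8.74, 8.56 and 8.31 in the control cultures, at 8.69, 8.49 and 8.58 at 50 mg/L, and at 11.15, 10.59 and 11.18 at 300 mg/L. The 3 arrays at 300 mg/L all lay far above the other 6, among which control and 50 mg/L overlapped. The rise at 300 mg/L against control was 2.44 ± 0.16 on the log2 scale (SE, n = 3 per group), or 5.41-fold, with an adjusted p of 2.72e-06. Against 50 mg/L it was 5.23-fold (adjusted p = 3.19e-06). RPN4 had the 38th largest rise among all 5449 genes. All tests are two-sided moderated tests of limma on the 9 arrays together, and p-values were adjusted across the 5449 genes by the Benjamini-Hochberg method, with calls made under 0.05.

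**Figure D1:**
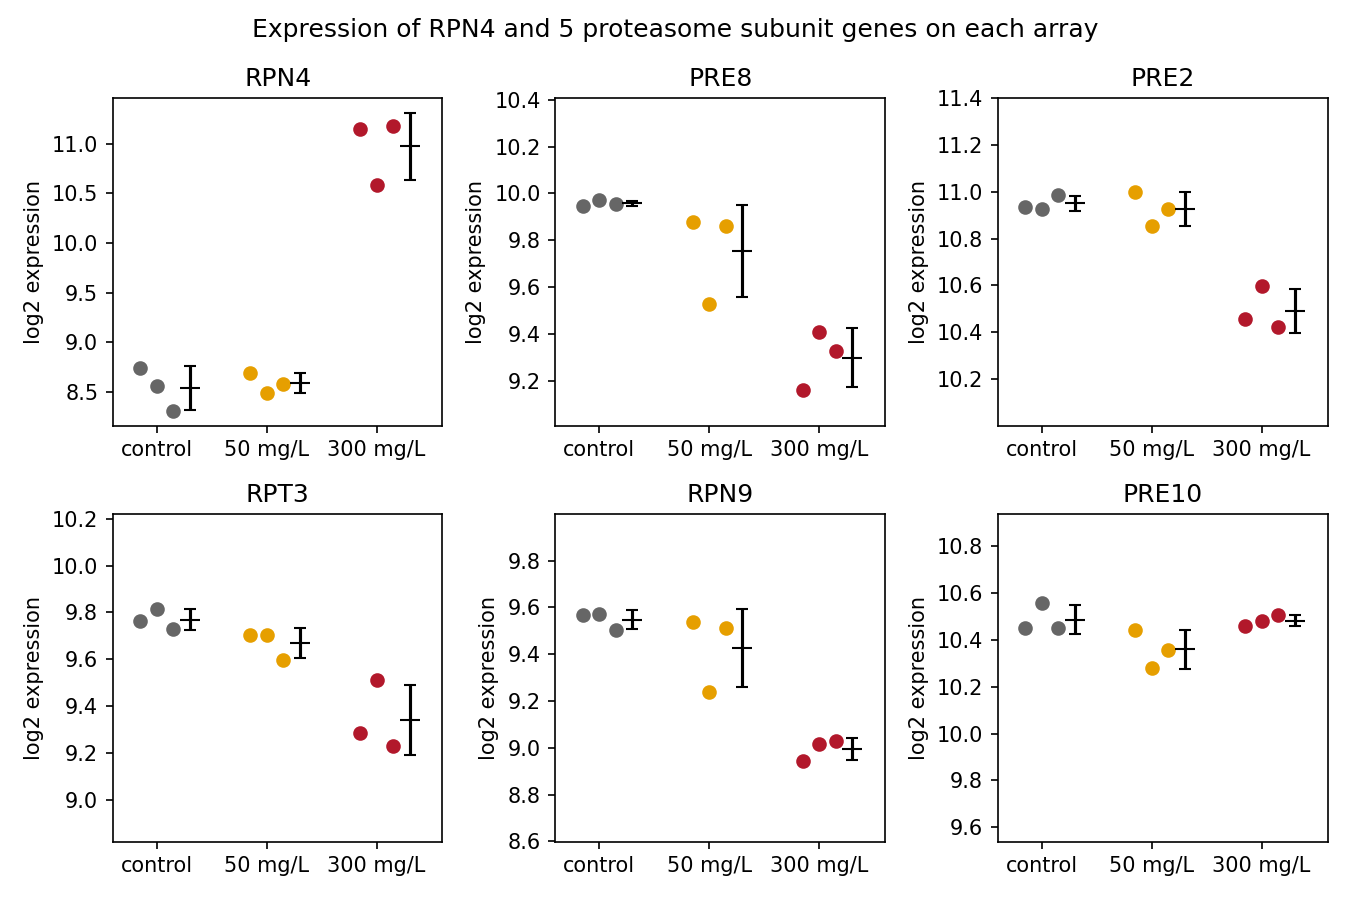
Log2 expression of RPN4 and of 5 subunit genes on each array, by group (points: arrays; bar: mean ± SD, n = 3); the RPN4 panel has its own vertical range, and the other panels share 1 span. RPN4 lies above 10.5 on the 3 arrays at 300 mg/L and below 9 on the other 6, PRE8, PRE2, RPT3 and RPN9 lie below all control arrays at 300 mg/L, and PRE10 overlaps the controls.

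The subunit falls were small. They ran from 1.15-fold for PRE5 to 1.58-fold for PRE8, and 0 of the 32 subunits changed 2-fold in either direction, with or without a condition on p. Of all genes, 4.2% rose and 1.19% fell by at least 2-fold with an adjusted p under 0.05. Over all genes at 300 mg/L against control, 25.2% were called lower and 27.5% higher, while of the subunits 46.9% were called lower and 0% higher. At an unadjusted p under 0.05 the counts for the subunits were also 15 lower and 0 higher, with 58.2% of all genes below that p. The median change was -0.12 over the 32 subunits and 0.01 over all genes. The subunit median lay between the quartiles of all genes, which were -0.23 and 0.28. For 19 subunits all 3 values at 300 mg/L lay under all 3 control values, where 32.6% of all genes did so. For 2, PRE7 and RPN11, all 3 lay above the controls, where 35.2% of all genes did. In bulk cultures, a lower level in every cell and a smaller share of cells with a high level cannot be told apart.

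**Figure D2:**
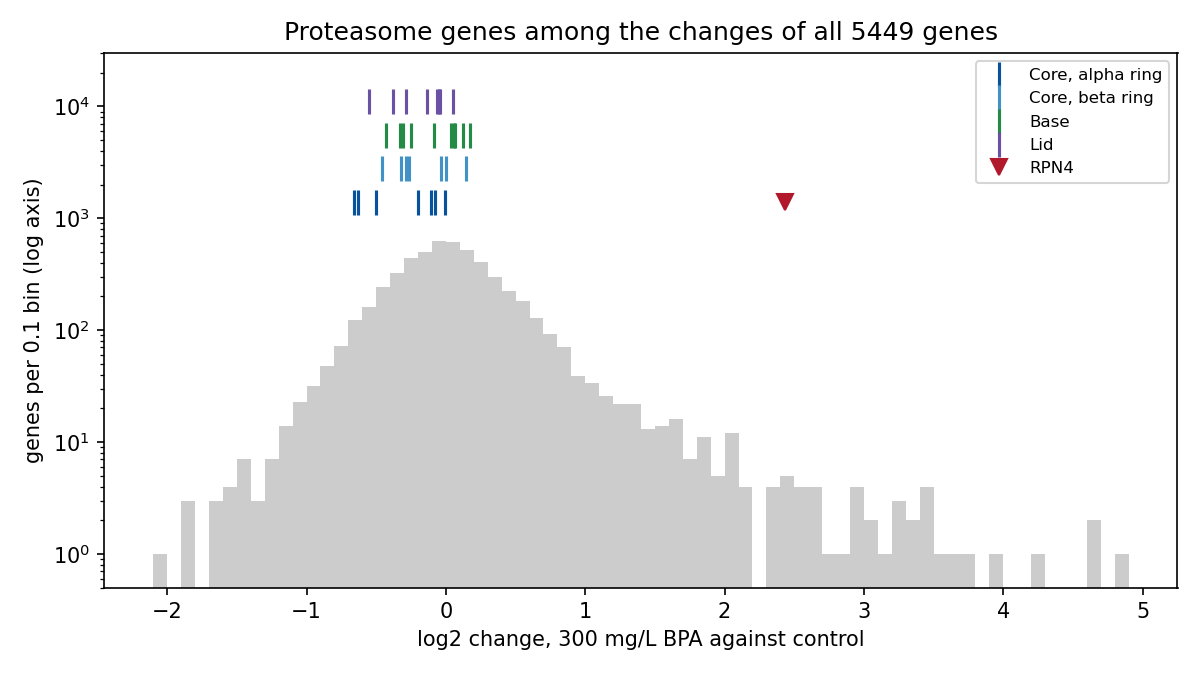
Distribution of the log2 change at 300 mg/L BPA against control over all 5449 genes (grey, number of genes per bin of 0.1, log axis), with 1 tick per subunit gene in rows by class, placed at arbitrary heights, and RPN4 as a triangle. The subunit ticks lie between -0.66 and 0.17, and RPN4 lies at 2.44.

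In the alpha ring of the core 4 of 7 genes fell at 300 mg/L and 0 rose, beside 25.2% and 27.5% of all genes. PRE8 (YML092C) was at 9.95, 9.97 and 9.96 in controls, 9.88, 9.53 and 9.86 at 50 mg/L, and 9.16, 9.41 and 9.33 at 300 mg/L. Its fall of 0.66 ± 0.10 on the log2 scale (adjusted p = 0.000453) was the largest among the 32 subunits. PUP2 (YGR253C) was at 10.10, 10.04 and 10.09 in controls, 10.11, 9.75 and 10.12 at 50 mg/L, and 9.31, 9.64 and 9.39 at 300 mg/L, a 1.55-fold fall (adjusted p = 0.00111). For both genes the 300 mg/L arrays lay below all others, and replicate 2 at 50 mg/L lay below the rest of its group. PRE9 (YGR135W), the alpha subunit whose loss yeast tolerates, fell by 0.50 ± 0.09 (adjusted p = 0.0015), and PRE5 fell by 0.20 ± 0.07 (0.0418).

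The remaining alpha genes did not pass the test. PRE10 (YOR362C) was at 10.45, 10.56 and 10.45 in controls, 10.44, 10.28 and 10.36 at 50 mg/L, and 10.46, 10.48 and 10.51 at 300 mg/L. Its groups overlapped at 300 mg/L and control, with a change of -0.01 and a 95% interval from -0.16 to 0.15. PRE6 (YOL038W) was at 10.97, 10.93 and 10.86 in controls, 10.88, 10.82 and 11.01 at 50 mg/L, and 10.81, 10.98 and 10.73 at 300 mg/L, overlapping throughout, with a change of -0.08 ± 0.08. SCL1 changed by -0.11 ± 0.07 (adjusted p = 0.245). Genes of a single ring, whose products are assembled in equal numbers, thus ranged from -0.66 to -0.01 in their change.

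The beta ring also had 4 of 7 genes lower and 0 higher, beside 25.2% and 27.5% of all genes. PRE2 (YPR103W), the subunit with the chymotrypsin-like site, was at 10.94, 10.93 and 10.99 in controls, 11.00, 10.85 and 10.93 at 50 mg/L, and 10.45, 10.60 and 10.42 at 300 mg/L. Its 300 mg/L arrays stood apart from the other 6, with a fall of 0.46 ± 0.07 (adjusted p = 0.000496). PRE3 (YJL001W), with the caspase-like site, was at 10.55, 10.50 and 10.43 in controls, 10.40, 10.21 and 10.32 at 50 mg/L, and 10.08, 10.25 and 10.19 at 300 mg/L. It fell by 0.32 ± 0.08 at 300 mg/L (adjusted p = 0.00529). At 50 mg/L its values lay below all controls, as did those of 6.5% of all genes, and that difference did not pass (adjusted p = 0.581). PUP1 (YOR157C), with the trypsin-like site, was at 10.090, 10.208 and 10.069 in controls, 10.135, 10.025 and 10.009 at 50 mg/L, and 10.002, 10.249 and 10.129 at 300 mg/L, overlapping throughout, with a change of 0.00 and a 95% interval from -0.17 to 0.18. The genes of the 3 protease sites therefore differed in their call, though the difference between them was not tested.

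Among the beta subunits without a protease site, PUP3 fell by 0.29 ± 0.10 (adjusted p = 0.0328) and PRE4 fell by 0.27 ± 0.07 (0.0127). PRE1 changed by -0.04 ± 0.07 (0.68). PRE7 (YBL041W) was at 9.75, 9.84 and 9.78 in controls, 9.83, 9.91 and 9.76 at 50 mg/L, and 9.94, 9.92 and 9.93 at 300 mg/L. All its 300 mg/L values lay above the controls, by 0.14 ± 0.06, without passing the test (adjusted p = 0.0894).

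**Figure D3:**
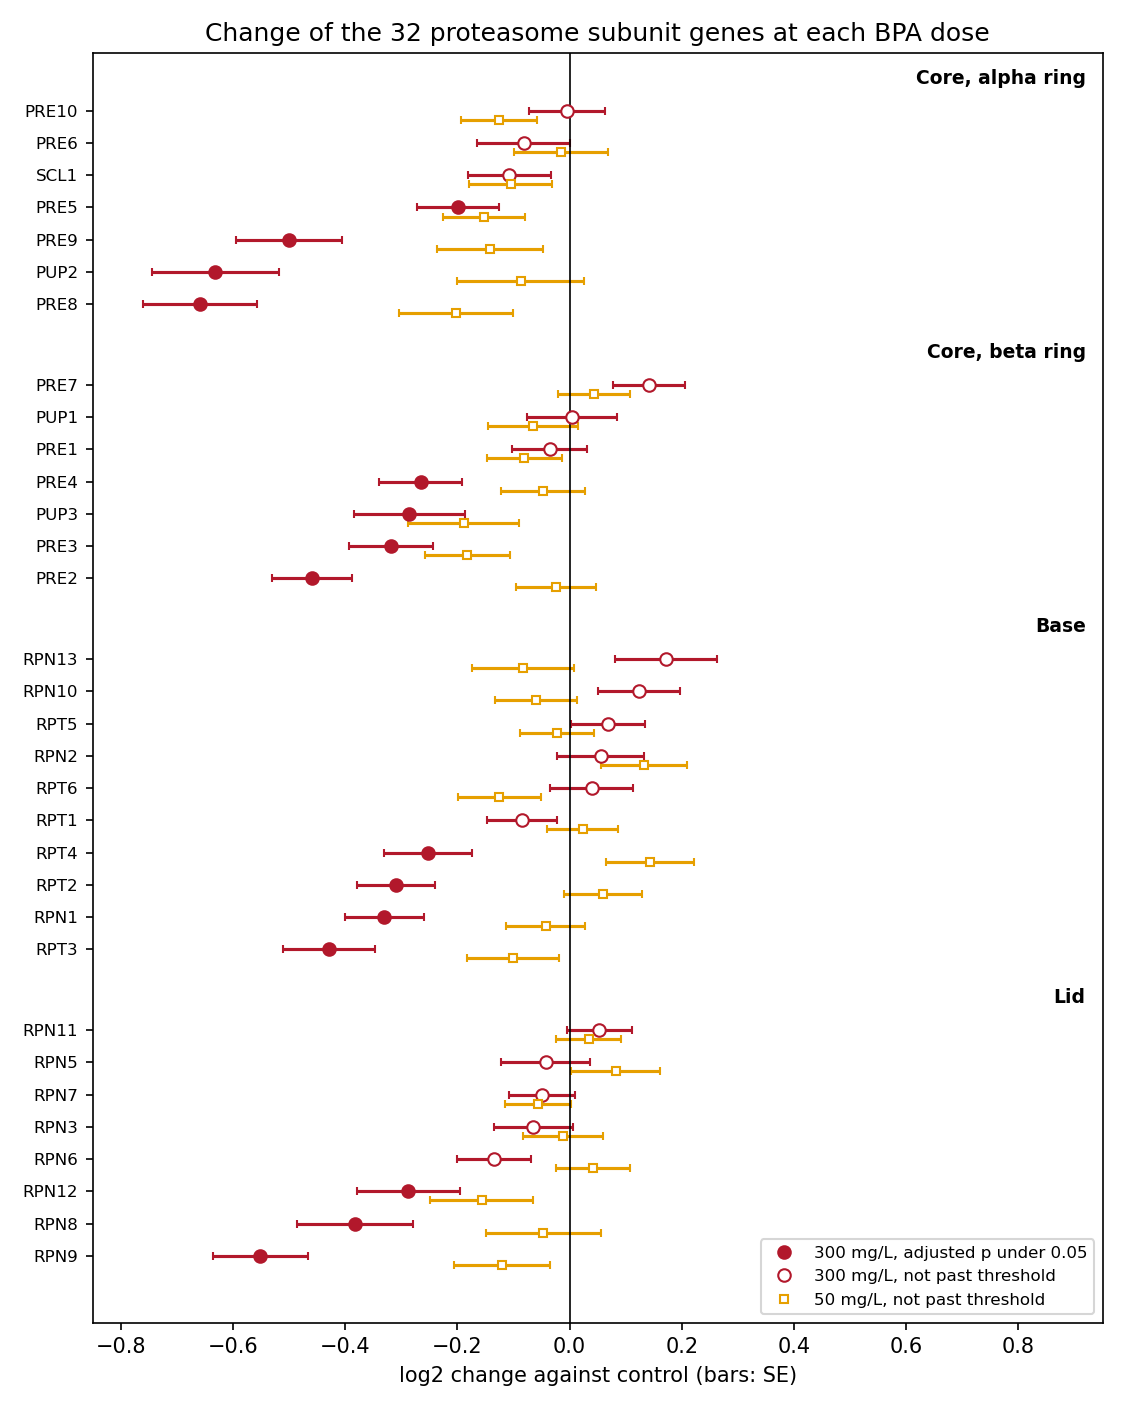
Log2 change against control for the 32 subunit genes by class, at 300 mg/L (red circles, filled where the adjusted p is under 0.05) and 50 mg/L (orange squares), with SE bars. The 15 filled circles all lie left of 0, between -0.66 and -0.20, and none of the 50 mg/L values passed.

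In the base 4 of 10 genes fell and 0 rose at 300 mg/L, beside 25.2% and 27.5% of all genes. The ATPase gene RPT3 (YDR394W) was at 9.76, 9.82 and 9.73 in controls, 9.70, 9.71 and 9.60 at 50 mg/L, and 9.29, 9.51 and 9.23 at 300 mg/L. It fell by 0.43 ± 0.08 (adjusted p = 0.00163). RPN1 (YHR027C), the large scaffold that binds ubiquitin and shuttle proteins, was at 10.82, 10.92 and 10.86 in controls, 10.78, 10.90 and 10.79 at 50 mg/L, and 10.48, 10.63 and 10.50 at 300 mg/L. It fell by 0.33 ± 0.07 (adjusted p = 0.00293), with no overlap between 300 mg/L and the other arrays.

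Of the other ATPases, RPT2 fell by 0.31 ± 0.07 (adjusted p = 0.00414) and RPT4 by 0.25 ± 0.08 (0.0202), while RPT1, RPT5 and RPT6 did not pass, at -0.08, 0.07 and 0.04. The scaffold gene RPN2 changed by 0.06 ± 0.08 (0.574). The highest changes in the base were those of the ubiquitin receptor genes RPN13 (YLR421C) and RPN10 (YHR200W), which also did not pass against control. RPN13 was at 9.63, 9.45 and 9.51 in controls, 9.55, 9.28 and 9.51 at 50 mg/L, and 9.67, 9.81 and 9.63 at 300 mg/L, a change of 0.17 ± 0.09 (adjusted p = 0.137). RPN10 was at 9.84, 9.90 and 9.82 in controls, 9.79, 9.77 and 9.83 at 50 mg/L, and 9.88, 10.11 and 9.94 at 300 mg/L, a change of 0.12 ± 0.07 (0.181). In both genes a control array reached into the range of the 300 mg/L arrays.

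In the lid 3 of 8 genes fell and 0 rose, beside 25.2% and 27.5% of all genes. RPN9 (YDR427W), a structural lid subunit, was at 9.57, 9.57 and 9.50 in controls, 9.54, 9.24 and 9.51 at 50 mg/L, and 8.94, 9.02 and 9.03 at 300 mg/L, a 1.47-fold fall (adjusted p = 0.00046). RPN8 (YOR261C), the partner of the deubiquitinase Rpn11, was at 10.06, 9.97 and 9.96 in controls, 9.99, 9.73 and 10.14 at 50 mg/L, and 9.55, 9.74 and 9.56 at 300 mg/L, a 1.30-fold fall (0.0105). In RPN9 the 300 mg/L arrays lay below all others, and in RPN8 1 of them overlapped replicate 2 at 50 mg/L. RPN12 fell by 0.29 ± 0.09 (0.0233).

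RPN11 (YFR004W), the deubiquitinase itself, was at 9.17, 9.15 and 9.17 in controls, 9.21, 9.17 and 9.21 at 50 mg/L, and 9.24, 9.18 and 9.22 at 300 mg/L. Its change was 0.05, with a 95% interval from -0.07 to 0.18. RPN5 (YDL147W), a structural subunit, was at 9.87, 9.96 and 10.05 in controls, 9.99, 10.06 and 10.07 at 50 mg/L, and 10.02, 9.94 and 9.79 at 300 mg/L, overlapping throughout, with a change of -0.04 and an interval from -0.22 to 0.13. RPN3, RPN6 and RPN7, also structural, changed by -0.06, -0.13 and -0.05 and did not pass. Over the 17 subunits that did not pass, the 95% intervals reached from -0.28 to 0.37, so changes beyond 0.823-fold or 1.30-fold lay outside the interval of each.

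Core, base and lid thus had 8 of 14, 4 of 10 and 3 of 8 genes lower, or 57.1%, 40.0% and 37.5%, beside 25.2% of all genes. The median change was -0.23 in the core, -0.02 in the base and -0.10 in the lid, and the range of changes in each class spanned both called falls and values at or above -0.01. With each array centred on S. pombe probe sets, the base median was 0.02 and that of all genes 0.06. No test between the classes was made, since subunits are not replicates of a class. Per array, the core median lay 0.33, 0.14 and 0.21 below the control mean at 300 mg/L, and the lid median 0.13, 0.05 and 0.17 below it. Replicate 2 at 300 mg/L had both the smallest core difference and the lowest RPN4 level of its group.

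**Figure D4:**
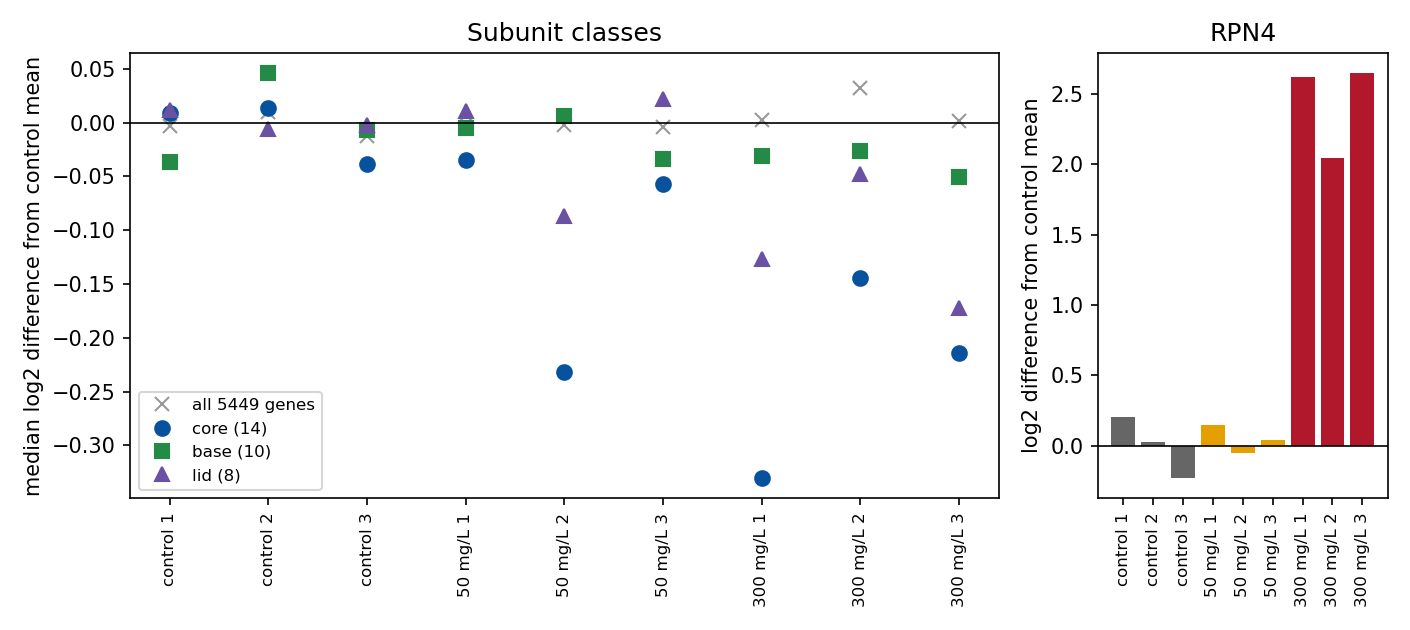
Left, the median log2 difference from the control mean over core, base and lid genes and over all genes, on each array; right, the same difference for RPN4, with its own axis. The core medians at 300 mg/L lie between -0.33 and -0.14, replicate 2 at 50 mg/L lies at -0.23, and RPN4 lies between 2.05 and 2.65 above the control mean at 300 mg/L.

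The calls at 300 mg/L differed in how much they rested on single arrays and on the scaling. PRE8, PUP2, PRE9, PRE2, RPT3, RPN8 and RPN9 passed under all 20 alternatives tried, as did RPN4. PRE3, RPT2 and RPN1 were lost only with arrays centred on spike-in probe sets. Another 5 lost the call with that centring and also without 1 of certain arrays. PRE5 lost it without any of the 3 controls, replicate 3 at 50 mg/L or replicates 1 or 3 at 300 mg/L (adjusted p from 0.0554 to 0.147), and PUP3 without any control or replicates 1 or 3 at 300 mg/L (0.0546 to 0.133). RPT4 lost it without control replicates 2 or 3 or replicates 1 or 3 at 300 mg/L (0.0544 to 0.0765), RPN12 without control replicates 1 or 2 or the same 300 mg/L arrays (0.0568 to 0.0913), and PRE4 without control replicate 2 or replicate 1 at 300 mg/L (0.0537 and 0.0574). The core count was 5 without control replicate 2 and 5 without replicate 1 at 300 mg/L, against 8 with all arrays. The share of all genes called lower also fell under both omissions, from 25.2% with all arrays. Whether the core lost more calls than all genes did was not tested. PRE5 and PUP3 were also lost with arrays centred on S. pombe probe sets (0.106 and 0.0682) and with the replicate number as a block over all 9 arrays (0.0664 and 0.0538). PUP3 and RPT4 were also lost with values quantile normalized again (0.0771 and 0.063). PRE7 was called higher in 4 of 20 alternatives. These were without replicate 2 at 50 mg/L, by 0.14 (adjusted p = 0.0349), with S. pombe centring (0.0379), with only the 2 groups compared (0.0418) and with array weights (0.0429). Array weights also called RPN13 higher (0.0265) and RPN6 lower (0.0144) against control.

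At 50 mg/L none of the 33 genes passed against control, and 0% of all genes did. By limma, 1 of 33, PRE3, fell under an unadjusted threshold of 0.05, where 7.14% of all genes did. Its change was -0.18 ± 0.08, with an adjusted p of 0.581. With array weights, and with the replicate number as a block, the count was also 0. The 95% intervals of the 32 subunits, from the main fit without that block, reached from -0.43 to 0.32. RPN4 changed by 0.05 ± 0.16 (adjusted p = 0.91). The median change was -0.10 in the core, with 13 of 14 values below 0, -0.03 in the base and -0.03 in the lid. One array carried much of the core difference: the core median lay 0.23 below the control mean on replicate 2, and 0.03 and 0.06 below it on replicates 1 and 3. Without replicate 2 the core median change was -0.04 and that of the lid 0.05. For 5 subunits, PRE8, PRE5, PRE10, PRE3 and RPT3, all 3 values at 50 mg/L lay below the controls, and for RPT4 above them, where 6.5% and 6.06% of all genes did so.

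Between the doses, 300 against 50 mg/L, 12 of the 32 subunits were lower and 1 higher, or 37.5% and 3.12%, where 25.3% and 27.5% of all genes were called. All 3 values at 300 mg/L lay below those at 50 mg/L for 12 subunits and above them for 6, where 28.8% and 30.9% of all genes did so. This comparison shares the 300 mg/L arrays with the one against control. The largest falls were those of PUP2, by 0.54 (adjusted p = 0.00258), PRE8, by 0.46 (0.00369), PRE2, by 0.43 (0.000668), and RPN9, by 0.43 (0.0019). RPT4 fell by 0.40 from 50 mg/L and by 0.25 from control, since its 50 mg/L values, 10.35, 10.53 and 10.42, were above the controls. Called only against control were PRE3, RPN12, PUP3 and PRE5, at -0.32, -0.29, -0.29 and -0.20, while against 50 mg/L they stood at -0.14, -0.13, -0.10 and -0.05. Without replicate 2 at 50 mg/L PRE3 and RPN12 were called against 50 mg/L as well (adjusted p = 0.0486 and 0.0223), and PUP3 and PRE5 were not. RPN6 was called at -0.18 (0.0451), but in only 8 of 20 alternatives. It was lost without any 1 control, without replicates 1 or 3 at 50 mg/L and without replicates 1 or 3 at 300 mg/L (0.0541 to 0.146). PRE4 was called in 12 of 20, and lost without replicates 1 or 3 at 50 mg/L or replicates 1 or 3 at 300 mg/L (0.0521 to 0.128). RPN8, called in 15 of 20, was lost without replicate 3 at 50 mg/L or replicates 1 or 3 at 300 mg/L (0.0637 to 0.0714).

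The subunit called higher between the doses was RPN13, by 0.25 (adjusted p = 0.0372). It lost the call without control replicate 3, replicate 2 at 50 mg/L, or replicates 1 or 2 at 300 mg/L (0.0513, 0.0929, 0.0691 and 0.124). Lid falls between the doses numbered 3 with all arrays and 1 without replicate 3 at 50 mg/L, replicate 1 at 300 mg/L or replicate 3 at 300 mg/L. The share of all genes called lower between the doses also fell under each of these omissions, from 25.3%. An F test for any difference among the 3 groups called 13 of the 33 genes, beside 52.9% of all genes.

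The median SD between replicates over the 32 subunits was 0.0452 in controls, 0.0877 at 50 mg/L and 0.0825 at 300 mg/L, against 0.0737, 0.13 and 0.0791 over all genes. Of 22 S. pombe probe sets for proteasome genes, 21 were above the background level on no array. As a check of RNA quality, 3' and 5' probe sets of 6 genes were compared. The 3' probe set of ACT1 exceeded its 5' probe set by 0.56 to 0.66 in controls and by 0.60 to 0.64 at 300 mg/L. For TDH1 the same difference was 0.11 to 0.32 in controls and 0.62 to 0.96 at 300 mg/L. It was also wholly higher at 300 mg/L for RIP1, at 0.23 to 0.35 against 0.03 to 0.21 in controls, and for WBP1, at 2.02 to 2.12 against 1.76 to 1.85. The ranges of these 2 groups overlapped for SPT15 and SRB4. Replicate 2 at 50 mg/L, the array with the low core median, had the largest difference of all 9 arrays for ACT1, SPT15 and SRB4 (0.75, 1.36 and 2.94). For RIP1 and WBP1 it stood at 0.30 and 2.05, within the 300 mg/L ranges, and for TDH1 at 0.33, below them. Replicates 1 and 3 at 50 mg/L lay within the control ranges for TDH1, RIP1 and SPT15, and above them for WBP1 (1.89 and 1.96). The part of these differences in the results was not tested. The members were spread over 13 chromosomes. PRE4 and RPN12 lay with 1 gene between them, as did RPT4 and RPN8. All 4 fell at 300 mg/L, where 46.9% of the subunits and 25.2% of all genes were called lower. The calls of PRE4, RPN12 and RPT4 were lost without certain single arrays, and a part of gene position was not tested.

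Other genes of the pathway were read from lists drawn up by function. Of 14 genes of proteasome assembly and associated factors, 7 fell and 2 rose at 300 mg/L, where 25.2% of all genes fell and 27.5% rose. The 7 falls became 2 without control replicate 2 or without replicate 1 at 300 mg/L, 3 without control replicate 1, and 4 without replicates 2 or 3 at 300 mg/L. They became 3 with arrays centred on S. pombe or on spike-in probe sets. Under each of these omissions and centrings, fewer than 25.2% of all genes were called lower as well. RPN14 and NAS2, chaperones of base assembly, fell by 0.48 ± 0.09 (adjusted p = 0.00132) and 0.46 ± 0.11 (0.00639). SEM1 (YDR363W-A), a small lid subunit that also serves other complexes and is not among the 33, was at 9.16, 8.95 and 9.11 in controls, 9.22, 9.01 and 9.30 at 50 mg/L, and 9.51, 9.47 and 9.42 at 300 mg/L. It rose 1.31-fold (adjusted p = 0.004), whereas the 3 called members of the lid fell. With spike-in centring the SEM1 call was lost (adjusted p = 0.216), as was that of RPN12 in the lid (0.115). BLM10, an activator that caps the core, rose 1.24-fold (0.0401), a call lost without any 1 of the 3 controls or the 3 arrays at 300 mg/L (0.0549 to 0.132). Its call was also lost with values quantile normalized again (0.0701) and with spike-in centring (0.41).

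Of 24 ubiquitin genes and conjugating or ligating enzymes, 10 fell and 3 rose, beside the same 25.2% and 27.5% of all genes. The 3 rises became 1 without control replicates 2 or 3 or replicates 1 or 3 at 300 mg/L, and 0 with spike-in centring, which left 5 falls. In each of these alternatives fewer than 27.5% of all genes were called higher. UBC8 and UBC13, both ubiquitin-conjugating enzymes, fell 1.64-fold and 1.61-fold (adjusted p = 0.000129 and 0.000228), while the ligase gene TOM1 rose 1.32-fold (0.0123) and the conjugating enzyme gene UBC1 1.21-fold (0.0237). The UBC1 call was lost without control replicates 2 or 3 or replicates 1 or 3 at 300 mg/L (0.0532 to 0.0897). The call of the third, the ligase gene RSP5, which rose 1.15-fold (0.0477), was lost without any 1 control or 300 mg/L array or replicate 3 at 50 mg/L (0.0549 to 0.126). Of 14 genes for Cdc48 (the segregase that pulls ubiquitin-tagged proteins from complexes), its partners, shuttle receptors and deubiquitinases, 6 fell and 0 rose by limma, again beside 25.2% and 27.5% of all genes. Spike-in centring left 2 of the 6 falls. At an unadjusted p under 0.05, 8 were lower and 1 was higher. The latter, UFD1, a Cdc48 partner gene named after its values were seen, was at 0.20 ± 0.08 (adjusted p = 0.0501), and was called higher without replicates 1 or 2 at 50 mg/L or replicate 1 at 300 mg/L (0.0475, 0.0419 and 0.0413). It was also called with S. pombe centring (0.0271), the background filter (0.0498), only the 2 groups compared (0.0386) and array weights (0.0465). UBP14, which takes apart free ubiquitin chains, fell 1.48-fold (0.000388) and the Cdc48 adaptor gene SHP1 1.34-fold (0.0005). The median changes of these lists were -0.16, -0.15 and -0.20, beside 0.01 over all genes. At 50 mg/L 0 genes of these lists passed by limma, and 4 of 14, 0 of 24 and 1 of 14 had an unadjusted p under 0.05, where 7.14% of all genes did.

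**Figure D5:**
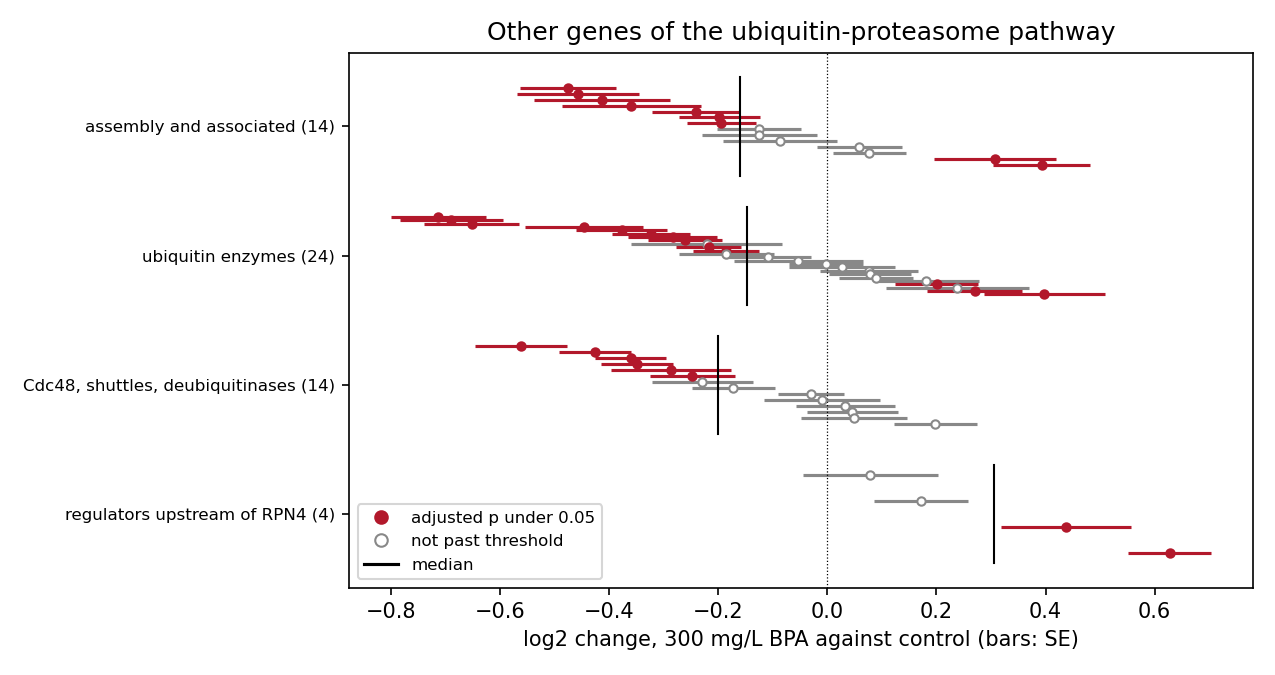
Log2 change at 300 mg/L BPA against control, with SE bars, for the genes of 4 lists of the ubiquitin-proteasome pathway, ordered by size within a list (red, adjusted p under 0.05; grey, not past the threshold; vertical bar, list median). Called genes lie mostly left of 0 in the upper 3 lists, with 2, 3 and 0 exceptions, and right of 0 among the regulators upstream of RPN4.

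Transcription factors that act on the RPN4 promoter in budding yeast had 2 of 4 genes higher and 0 lower at 300 mg/L, beside 27.5% and 25.2% of all genes. YAP1 (YML007W), a regulator of the oxidative stress response, was at 7.83, 7.82 and 7.99 in controls, 7.89, 8.08 and 7.91 at 50 mg/L, and 8.51, 8.47 and 8.54 at 300 mg/L, and rose 1.54-fold (adjusted p = 0.000125). PDR3, a regulator of drug efflux genes, rose 1.35-fold (0.0111). Its call was lost with spike-in centring (adjusted p = 0.147), which left 1 of the 2 rises. The 300 mg/L arrays lay above all 6 others for YAP1, while for PDR3 replicates 1 and 2 at 300 mg/L lay within the range of the 50 mg/L arrays. PDR1 and HSF1, the latter the heat shock regulator, changed by 0.17 ± 0.09 (0.117) and 0.08 ± 0.12 (0.619). UBR2 and MUB1, whose products together tag the Rpn4 protein for degradation, changed by 0.24 ± 0.13 (0.153) and -0.00 ± 0.07 (0.984). PDR1 was called higher (0.0371) without replicate 2 at 50 mg/L, and UBR2 (0.0321) without replicate 1 at 50 mg/L. With only the 2 groups compared, UBR2 was also called (0.0336), and PDR1 was when the replicate block was added (0.0492).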

How the data were processed

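The authors deposited log2 expression values for 10928 probe sets on 9 arrays. The tools RMA, affy and limma appear in the submitters' processing notes, without versions. RMA makes probe intensities equal in distribution between arrays, so total mRNA per cell is not measured. Per the labels' protocols, RNA was labelled with biotin by 3' in vitro transcription. Of the probe sets, 5498 matched S. cerevisiae genes of the R64 RefSeq table (names and gene order only), and the one with the highest mean over the 9 arrays was kept per gene, leaving 5449. limma 3.58.1 (R 4.3.3; lmFit and eBayes) was fitted to all 9 arrays at once and tested on simulated data first. The number of arrays limits the precision. Figures used matplotlib 3.10.9. No batch is named in the labels.

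All members are named; full values are given for RPN4 and for the 2 lowest and 2 highest changes of each ring, the base and the lid, and for lists the 2 largest called rises and falls. PDR1, HSF1, UBR2 and MUB1 were named after their values were seen. Members and lists were chosen with earlier results of these data known. Deviations of same-numbered arrays correlated at 0.19 to 0.42 between control and 50 mg/L, which were taken as paired. For the other pairs of groups they correlated at -0.34 to 0.093 and -0.26 to 0.16, and these were not taken as paired. The main fit was unpaired throughout, so its SEs, intervals and p-values at 50 mg/L ignore that pairing. The replicate number entered only as a block in the alternatives. A planned search of promoters for motifs was not made, since no promoter sequence was used here. Alternatives covered the scaling, filter, samples, weights, probe sets, the replicate block and each array left out.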

Additional observations from a re-analysis of the deposited data

How the results depend on the processing

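No called change of a member reversed under any of the 20 alternatives. Centring on spike-in probe sets, which shifted the median gene by -0.09 at 300 mg/L and -0.11 at 50 mg/L against control, lowered the counts most. At 300 mg/L against control it gave 679 genes higher and 853 lower over all, and 7 members lower, 4 in the core and 1 in the base. For 300 against 50 mg/L it gave 882 and 535 over all, 1 member higher and 1 lower (in the core), and 0 base genes higher, 0 base and 0 lid genes lower. The F test then called 1503 genes and 6 members. Centring on S. pombe probe sets gave 2 members higher at 300 mg/L against control, 1 in the core, and 4 against 50 mg/L, 3 in the base. Only the 2 groups compared gave 2 higher against control, 1 in the core, and 1 against 50 mg/L, 0 in the base. Array weights, whose estimate gave a warning, made 3 members higher against control, 1 each in core and base, 1 core gene higher and 5 lid genes lower against 50 mg/L, 14 genes higher and 17 lower at 50 mg/L against control, and 21 members by the F test. An intensity trend gave 2 base genes higher between the doses. With the replicate block among the 2 groups compared, 1 gene of all was higher at 50 mg/L, and between the doses 1 member was higher, 0 in the base, and 1 lid gene lower; with the replicate block over all 9 arrays 13 members were lower at 300 mg/L against control, and it changed no call at 50 mg/L. With spike-in centring PRE3, RPT2 and RPN1 stood at -0.41, -0.40 and -0.42, larger falls than in the main fit, yet lost their calls. The mean of the spike-in probe sets ran from 8.51 to 8.76 in controls, 8.47 to 8.86 at 50 mg/L and 8.53 to 8.84 at 300 mg/L. The cause of the changed counts was not tested.

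Leaving out each array in turn, members called at 300 mg/L against control ran from 1 to 2 higher and 10 to 15 lower, core genes from 0 to 1 higher and 5 to 8 lower. The share of all genes called lower also moved, from 25.2% with all arrays. It was smaller without any 1 control, any 1 array at 300 mg/L or replicate 3 at 50 mg/L. It was larger without replicates 1 or 2 at 50 mg/L. Between the doses members ran from 1 to 2 higher, base genes from 0 to 1 higher and lid genes from 1 to 4 lower. No member was called at 50 mg/L in any alternative. Values uncalled both in the main fit and in an alternative differed in sign between them in 79 cases. These were counted over the members and, at 300 mg/L against control, the list genes. Such signs were not read as rises or falls. The F test could not be run on 2 groups alone.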
